A study of Mus musculus with 9 samples.

Results

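Alpha-arrestins are adaptor proteins with the fold of the arrestins of vision and receptor desensitisation, and the 5 genes described here, Txnip, Arrdc1, Arrdc2, Arrdc3 and Arrdc4, make up the family in the mouse together with Arrdc5, which was not analysed here. They were taken by symbol from a table of 16231 genes, having been chosen by their counts in the group comparisons below, and all 5 passed the filter on low counts that left 12747 genes for testing. The libraries were bulk RNA-seq of mouse tissue labelled as retina: 3 from young mice, 3 from old mice without treatment, called aged here, and 3 from old mice given EGCG (epigallocatechin gallate, a catechin of green tea). No genotype, strain, age, sex, dose or duration is given in the sources used here, and whether the 3 libraries per group stem from different mice is not labelled either. The errors below therefore measure only the spread between libraries, which may be technical.

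Alpha-arrestins are known for bringing ubiquitin ligases of the NEDD4 family to membrane proteins, which are then taken into the cell and degraded. TXNIP (thioredoxin-interacting protein) binds reduced thioredoxin and promotes the removal of glucose transporters from the cell surface, and its gene is a well-known target of the glucose-sensing factors ChREBP (Mlxipl) and MondoA (Mlxip). ARRDC4, its closest relative, shares the action on glucose transporters and the control by these factors. ARRDC3 is known as an adaptor of beta-adrenergic receptors that affects energy expenditure, ARRDC1 as a driver of budding of small vesicles from the plasma membrane, and ARRDC2 is less well studied.

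The stretches before the start sites of Txnip, Arrdc4 and Arrdc3 are shown because the glucose response of the family is known to act through such promoters and because these 3 genes had different patterns over the groups. Each holds the 250 bases before the start in RefSeq on GRCm38.p6, 5′ to 3′ on the gene's strand. Capitals mark matches, on either strand, to CCAAT, to the E-box CACGTG, to the paired E-box of carbohydrate response elements (CACGNG and CACGNG 5 bases apart) and to the forkhead motif GTAAACA. The stretches lie at chr3:96557707-96557956 on the plus strand for Txnip, at chr7:68749239-68749488 on the minus strand for Arrdc4 and at chr13:80883134-80883383 on the plus strand for Arrdc3, the latter being the first of 3 start sites listed for that gene.
Txnip: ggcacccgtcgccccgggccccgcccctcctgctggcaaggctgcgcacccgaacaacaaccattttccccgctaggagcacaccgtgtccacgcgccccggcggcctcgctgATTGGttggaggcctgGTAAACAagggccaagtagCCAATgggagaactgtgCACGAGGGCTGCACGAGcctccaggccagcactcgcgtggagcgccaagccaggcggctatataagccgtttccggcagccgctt
Arrdc4: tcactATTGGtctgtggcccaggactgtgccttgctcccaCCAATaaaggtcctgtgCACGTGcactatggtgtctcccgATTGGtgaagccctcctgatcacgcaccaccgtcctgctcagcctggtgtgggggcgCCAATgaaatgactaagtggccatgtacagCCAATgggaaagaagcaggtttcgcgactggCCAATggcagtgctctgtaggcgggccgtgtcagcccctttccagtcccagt
Arrdc3: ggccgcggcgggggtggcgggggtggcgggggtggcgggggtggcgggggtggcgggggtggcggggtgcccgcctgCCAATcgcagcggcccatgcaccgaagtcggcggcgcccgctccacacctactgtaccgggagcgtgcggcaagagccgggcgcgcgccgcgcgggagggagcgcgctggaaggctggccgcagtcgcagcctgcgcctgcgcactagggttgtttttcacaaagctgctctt

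Txnip alone among the 5 genes held the paired E-box, whose first base lay 85 bases before the start, and it was also the only member with the forkhead motif, 121 bases before the start. The paired pattern occurred in 15 of 32851 promoter stretches of the same length (0.0457%) and the forkhead motif in 3.17%. The paired pattern was written with the known element of Txnip in mind, so its match there is no test. Arrdc4 held an E-box 193 bases before the start, found in 6.02% of stretches, and 6 CCAAT boxes. A CCAAT box occurred in 4 of the 5 members, all but Arrdc1, and in 33.8% of all stretches. No member matched the cAMP response element TGACGTCA, the glucocorticoid response element (AGAACA and TGTTCT 3 bases apart) or the heat shock element (GAA, TTC and GAA, each 2 bases apart) within these windows. A match is only a run of letters, and the libraries measure no binding.

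The libraries held 34240500 to 39922044 counts each, and levels are given as CPM (counts scaled to a common library size with TMM factors) unless FPKM (which also divides by gene length) is named. Of the 10 rod markers of the labelled tissue 6 were measured, and 4 of these lay under 1 CPM in every library, where a floor of 3 counts is 0.0751 to 0.0876 CPM of the library total. The others were Rom1, at 1.25 to 2.19 CPM by group mean, and Gnat1, rod transducin, at 29.2 ± 2.6 CPM in young, 10.04 ± 0.33 in aged and 4.74 ± 0.71 in treated libraries. Markers of hepatocytes were abundant, with Alb (serum albumin) at 81950 to 87640 CPM by group mean. Which cells expressed the alpha-arrestins cannot be told from these libraries.

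Txnip and Arrdc3 were the members that differed most, and both were highest in the aged libraries. In that group they were nearly equal in CPM, although they started from different levels in the young libraries and reached different levels in the treated ones. The lower-expressed Arrdc2 and Arrdc1 were also higher in aged than in young libraries. On the log2 scale both kept most of that difference in the treated libraries. Arrdc4 differed least with age and was lowest in the treated libraries. Because the family was chosen with these comparisons known, the values of its members are a description and no p-value is given for them.

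**Figure D1:**
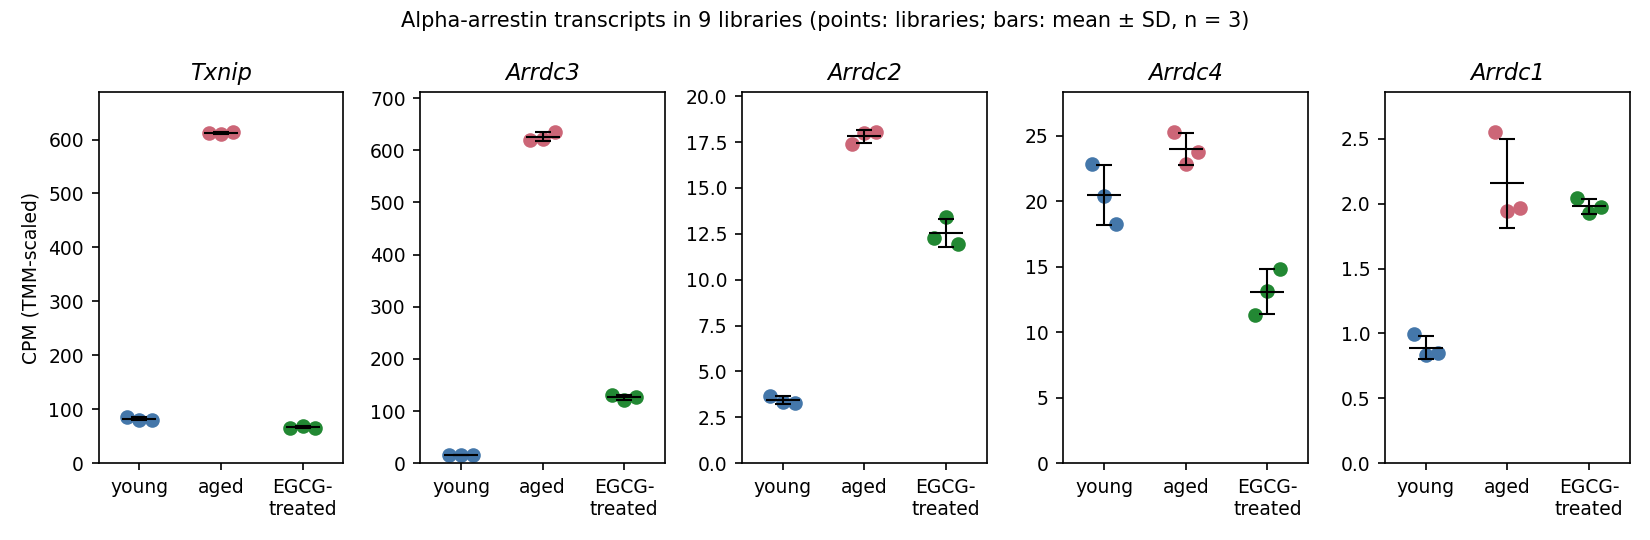
CPM of each alpha-arrestin gene (vertical axis, from 0, with its own scale in each panel) in the 9 libraries by group; points are libraries and bars the mean ± SD of 3. Txnip and Arrdc3 peak in the aged group at 613 and 626 CPM on average, and only Arrdc1 overlaps between the aged and treated groups.

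Txnip (ENSMUSG00000038393.14, GENCODE M21 on GRCm38, chromosome 3, 96557957 to 96561883, plus strand) had 85.5, 80.8 and 80.5 CPM in the young libraries, 613, 611 and 614 in the aged ones and 65.7, 69.0 and 65.4 in the treated ones. The aged libraries were high and alike, and the treated libraries lay below the young ones without overlap. The group means were 82.3 ± 2.8, 613 ± 1.6 and 66.7 ± 2.0 CPM (SD, n = 3). The level was 7.45-fold higher in aged than in young libraries (log2 fold change 2.90, SE 0.031) and 9.18-fold lower in treated than in aged ones (-3.20, SE 0.032). Treated libraries were lower than young ones by far less (-0.30, SE 0.033), and this small difference depended on scaling: it was -0.14 with upper-quartile factors and -0.12 on log2(FPKM + 1). The antisense gene Gm15441, not analysed here, spans Txnip on the other strand, and no source used here says whether the counting used strand, so reads of the pair cannot be told apart.

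Arrdc3 (ENSMUSG00000074794.10, chromosome 13, 80883384 to 80896042, plus strand) had 15.96, 14.96 and 16.4 CPM in young, 620, 622 and 635 in aged and 130, 120 and 127 in the treated libraries. All 3 groups were apart, with the treated libraries between the other 2 groups. The means were 15.8 ± 0.76, 626 ± 8.4 and 126 ± 5.2 CPM (SD, n = 3). Arrdc3 was 39.6-fold higher in aged than in young libraries (log2 fold change 5.31, SE 0.040), the 24th highest of the 12747 fold changes, where Txnip was the 221st. Treatment went with a 4.97-fold lower level (-2.31, SE 0.031), the 164th lowest, while Txnip stood at place 62 from the lowest. The treated level was still 7.98-fold above the young one (2.996, SE 0.041). The antisense transcript 1700023H06Rik, not analysed here, lies within Arrdc3.

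Arrdc2 (ENSMUSG00000002910.11, chromosome 8, 70835129 to 70839720, minus strand) had 3.68, 3.34 and 3.27 CPM in young, 17.4, 18.0 and 18.1 in aged and 12.3, 13.4 and 11.9 in treated libraries. Its groups did not overlap, and the treated group lay closer to the aged than to the young one. The difference with age was 5.19-fold (log2 fold change 2.38, SE 0.11), and that of treated against aged libraries was 1.42-fold downward (-0.51, SE 0.092). Treated libraries remained 3.65-fold above young ones (1.87, SE 0.11).

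Arrdc1 (ENSMUSG00000026972.15, chromosome 2, 24925352 to 24935252, minus strand) was the least abundant member, with 27 to 31 counts in a young, 77 to 99 in an aged and 71 to 75 in a treated library. These corresponded to 0.993, 0.834 and 0.848 CPM in young, 2.56, 1.95 and 1.97 in aged and 2.04, 1.93 and 1.97 in treated libraries. The aged and treated libraries overlapped and both lay above the young ones. Arrdc1 was 2.41-fold higher in aged than in young libraries (log2 fold change 1.27, SE 0.28), and treated and aged libraries could not be told apart (-0.12, SE 0.26).

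Arrdc4 (ENSMUSG00000042659.15, chromosome 7, 68736995 to 68749241, minus strand) had 22.8, 20.4 and 18.2 CPM in young, 25.3, 22.8 and 23.8 in aged and 11.3, 13.1 and 14.8 in treated libraries. The lowest aged library (22.84) and the highest young one (22.81) were almost level, and the treated libraries lay below all others. The difference with age was small (log2 fold change 0.23, SE 0.085) and was no longer called without aged replicate 1 (0.19) or without young replicate 3 (0.15). Treated libraries were 1.83-fold lower than aged ones (-0.87, SE 0.087) and 1.57-fold lower than young ones (-0.65, SE 0.089). The difference with age was thus 2.90 for Txnip and 0.23 for Arrdc4, the members known to share the response to glucose.

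By edgeR's quasi-likelihood test at an adjusted p of 0.05, 5 of the 5 members were called higher in aged than in young libraries, where 33.4% of all tested genes were (69.5% were called in either direction). In treated against aged libraries 4 of 5 were called lower, against 31.5% of all genes (63.3% in either direction), and 1, Arrdc1, was not called. In treated against young libraries 3 of 5 were called higher (Arrdc1, Arrdc2 and Arrdc3; 30.8% of all genes) and 2 lower (Arrdc4 and Txnip; 32.1%, or 62.9% in either direction). Groups did not overlap in CPM for 5 of 5 members with age, all higher in aged libraries, which held for 71.4% of all genes (34.5% higher and 37.0% lower). Treated and aged libraries did not overlap for 4 of 5 members, all lower in treated ones, against 66.9% of genes (33.6% higher and 33.3% lower). Treated and young libraries did not overlap for 5 of 5, 3 higher and 2 lower, against 65.2% of genes (32.1% higher and 33.1% lower). The members' median log2 fold change was 2.38, -0.87 and 1.15 in these comparisons, against medians of -0.015, 0.0080 and 0.016 over all tested genes. Nothing is read from these counts, because the members were chosen with the comparisons known, and the 3 comparisons share libraries with each other. The share of higher calls among all calls also moved with scaling. It was 48.1% for aged against young and 49.0% for treated against young with TMM factors, but 57.9% and 65.6% with upper-quartile factors and 67.2% for both on log2(FPKM + 0.1), where the median over all genes was 0.17 in each.

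**Figure D2:**
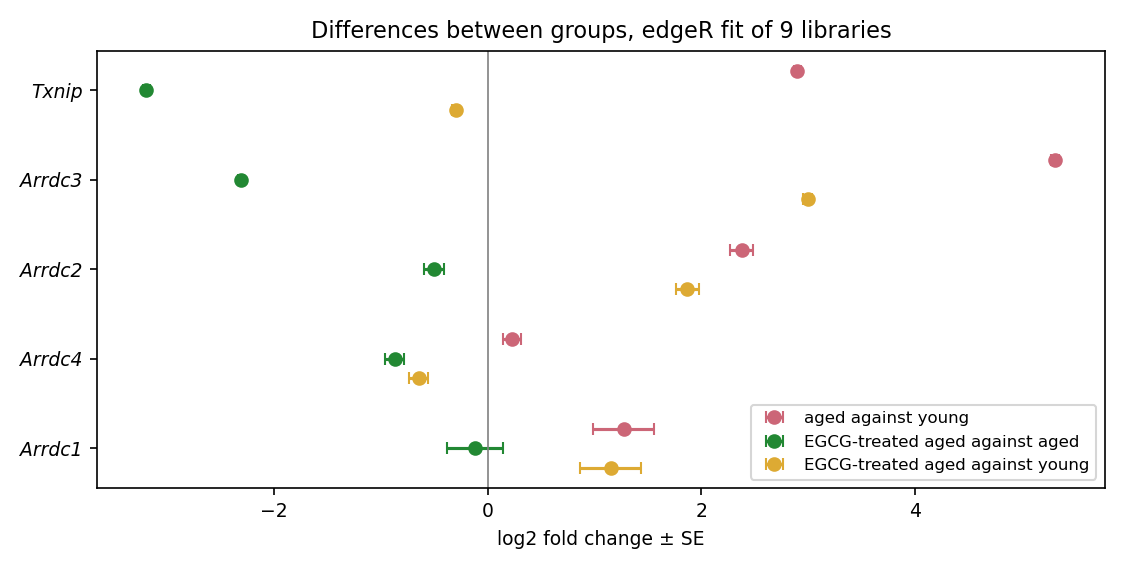
Log2 fold change ± SE (horizontal axis) of each alpha-arrestin gene in the 3 comparisons, from the fit of all 9 libraries. With age Arrdc3 lies at 5.31 and Txnip at 2.90, whereas against the aged group the treated group lies lower for Txnip (-3.20) than for Arrdc3 (-2.31).

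How much of the difference with age was left in the treated libraries varied across the members. On the log2 scale, 91.2% of it was left for Arrdc1 (86.5 to 101% when each library in turn was left out), 78.6% for Arrdc2 (76.5 to 80.1%) and 56.4% for Arrdc3 (56.0 to 57.1%). For Txnip the value was -10.4% (-11.3 to -9.37%), since the treated libraries lay slightly below the young ones. The age difference of Arrdc4 was too small for such a share to be read. The order Arrdc1, Arrdc2, Arrdc3, Txnip held in the ranges without each library.

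Per length, the family's summed level was 36.0 ± 1.4 FPKM in young, 368 ± 3.2 in aged and 58.8 ± 0.54 in treated libraries (SD, n = 3). Txnip made up 74.8% of the sum in young, 62.5% in aged and 42.1% in treated libraries. Arrdc3 held 7.51%, 33.4% and 41.5%, so that in the treated libraries it stood level with Txnip. The ratio of Arrdc3 to Txnip in FPKM was 0.0968 to 0.107 in young, 0.529 to 0.541 in aged and 0.910 to 1.04 in treated libraries. This ratio does not depend on library scaling, and its 3 groups did not overlap. The ratio of Arrdc4 to Txnip was 0.160 to 0.189, 0.0265 to 0.0292 and 0.122 to 0.160.

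The order of the levels per length also differed by group. In young libraries it ran Txnip (26.9 FPKM), Arrdc4 (4.74), Arrdc3 (2.70), Arrdc2 (1.28) and Arrdc1 (0.373), with each step larger than the spread between libraries. In aged libraries it ran Txnip (230), Arrdc3 (123), Arrdc2 (7.62), Arrdc4 (6.37) and Arrdc1 (1.04). In treated libraries Txnip (24.7 ± 0.83) and Arrdc3 (24.4 ± 1.1) differed by less than their SD, followed by Arrdc2 (5.29), Arrdc4 (3.43) and Arrdc1 (0.939). Among all 16231 genes Txnip took place 1708 by FPKM in young, 269 in aged and 1903 in treated group, and Arrdc3 places 6853, 518 and 1922.

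**Figure D3:**
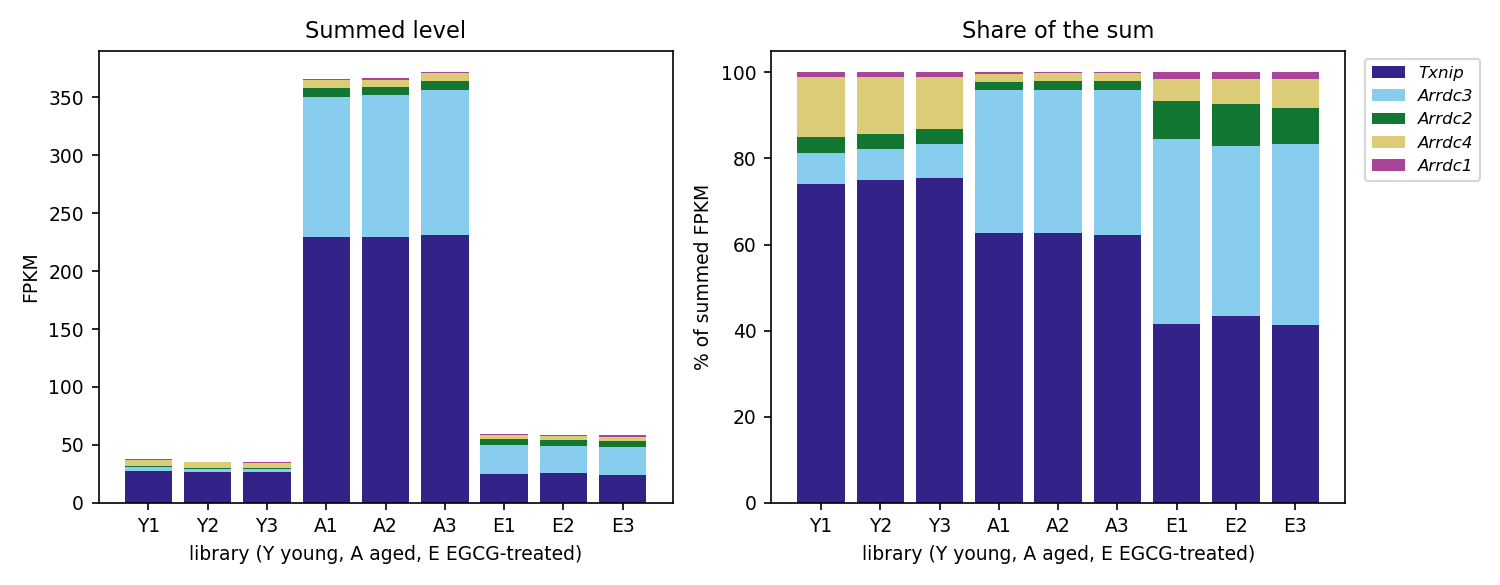
Summed FPKM of the 5 alpha-arrestin genes in each of 9 libraries (left, from 0) and the share of each gene in that sum in percent (right); Y is young, A aged and E EGCG-treated. The sum is 368 FPKM on average in the aged group against 36.0 and 58.8 in the others, and the share of Arrdc3 is 7.51%, 33.4% and 41.5% in the young, aged and treated groups.

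Genes of other cell types moved with the same groups. Among all tested genes 33.4% were called higher and 36.1% lower with age, and 31.8% and 31.5% with treatment. All 12 macrophage markers were called higher in aged than in young libraries and lower in treated than in aged ones, and their summed level was 139.6 to 142.4 CPM in young, 774 to 792 in aged and 295 to 304 in the treated libraries. Of 10 endothelial markers 9 were higher with age, with sums of 148.5 to 149.5, 312 to 323 and 129 to 138 CPM. All 9 markers of stellate cells and fibroblasts were higher with age, with sums of 101.5 to 116, 390 to 400 and 159 to 169 CPM. Of 8 neutrophil markers 6 were tested, 3 of them higher with age, and the sums were 9.24 to 10.6, 15.98 to 18.5 and 1.49 to 1.72 CPM. All 7 lymphocyte markers tested were called higher with age and also higher in treated than in young libraries (30.8% of all genes). Their sums were 0.394 to 0.989, 16.5 to 18.5 and 8.56 to 10.4 CPM. In treated against aged libraries only 1 was called lower and 1 higher. Jchain made up most of the aged sum, at 0.332 ± 0.27, 13.2 ± 1.8 and 4.48 ± 0.23 CPM. Of 9 hepatocyte markers 2 were called higher and 7 lower with age, and 4 higher and 4 lower with treatment, while their sum, most of it Alb, was 131300 to 134100, 130500 to 132200 and 134100 to 139000 CPM. In bulk RNA, more cells of a type and more RNA per cell cannot be told apart, and the part of these markers in the levels of the alpha-arrestins was not tested.

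**Figure D4:**
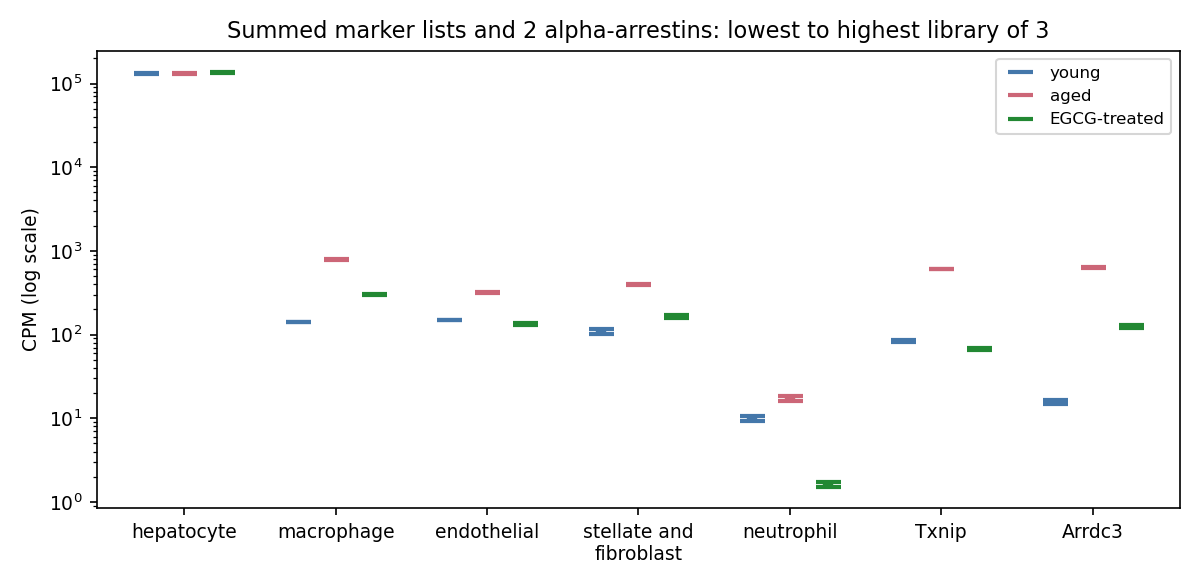
Summed CPM of 5 marker lists and CPM of Txnip and Arrdc3 (log axis), drawn from the lowest to the highest of 3 libraries in each group. The macrophage, endothelial and stellate lists are highest in the aged group, as are both genes, and the hepatocyte sums stay between 130500 and 139000.

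The genes with the most similar profiles were found by the root mean square difference of log2 CPM, centred per gene, over the 9 libraries and 9206 candidate genes. Nearest to Txnip were Klf6, an early response factor (0.22), Il1b, which encodes interleukin 1 beta (0.29), and the chemokine gene Cxcl13 (0.30). Klf6 had 8.03 CPM in young, 49.99 in aged and 7.21 in treated libraries. Nearest to Arrdc3 were the orphan nuclear receptor gene Nr4a1 (0.19; 1.47, 52.0 and 11.8 CPM), followed at a distance by the matricellular gene Ccn1 (0.48) and Ppp1r3c, a glycogen-targeting phosphatase subunit (0.49). Arrdc2 was most like the linker histone gene H1f2 (0.071), Cnnm4 (0.12) and Arl4d (0.12). Arrdc1 was most like Tmem140 (0.081), Itgb5 (0.12) and Eps8l2 (0.13), and Arrdc4 like the glycolytic gene Aldoa (0.11), Rapgef6 (0.12) and Mafk (0.13). With 3 groups, likeness of profile mainly compares 3 group means.

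With TMM factors thioredoxin, the partner that TXNIP binds, and most but not all of the genes around it differed in the direction opposite to Txnip. Of 15 genes of the thioredoxin system 13 were called lower and 2 higher in aged than in young libraries (median log2 fold change -0.26; 36.1% of all tested genes were lower), and 12 rose and 1 fell (0 without aged replicate 3) in treated against aged libraries (median 0.34; 31.8% of all genes rose). On log2(FPKM + 1) only 6 were lower with age, with the median still below 0. Txnrd1, thioredoxin reductase, was at 211 ± 2.5 CPM in young, 129 ± 2.9 in aged and 130 ± 2.6 in treated libraries (-0.71, SE 0.032, with age). Its difference with treatment, 0.014, was not called. Txnrd2 and Txnrd3, named here after their values were seen, were the 2 genes called higher with age (0.20 and 0.52). Txnrd3 was the 1 called lower with treatment (-0.40). Txn1, cytosolic thioredoxin, was at 122 ± 4.4, 105 ± 3.2 and 158 ± 9.4 CPM. It rose by 0.59 in treated against aged libraries, while its difference with age of -0.21 became -0.015 on log2(FPKM + 1), where it was not called.

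The genes of the glucose-sensing factors differed from each other, and their known targets went in both directions. Of 18 genes of the ChREBP and MondoA system 5 were called higher (3 without aged replicate 2) and 12 lower in aged than in young libraries (median -0.41; 33.4% and 36.1% of all genes), and 10 higher and 7 lower in treated than in aged ones (median 0.17; 31.8% and 31.5%). Mlxipl, the gene of ChREBP, was at 204 ± 3.0 CPM in the young and 215 ± 5.8 in the aged libraries (0.075, a call lost without aged replicate 1 or 2 or young replicate 3, at 0.068, 0.057 and 0.059). It rose to 418 ± 10 in the treated ones (0.96, SE 0.028), where Txnip was lowest. Mlxip, the gene of MondoA, was at 5.89 ± 0.83, 9.41 ± 0.68 and 4.86 ± 0.66 CPM, so that it rose with age (0.68) and fell with treatment (-0.95), as Txnip was higher and then lower. Mlx, also in this list and named after its values were seen, went the opposite way. It was at 49.35 ± 1.15, 27.3 ± 1.09 and 43.0 ± 2.3 CPM (-0.85 with age and 0.66 with treatment). The lipogenic targets Thrsp (1407 ± 15, 155 ± 5.6 and 480 ± 17 CPM) and Elovl6 (306 ± 3.2, 81.1 ± 3.3 and 131 ± 3.1 CPM) were lowest in the aged group. Other lipogenic genes of the list, named here after their values were seen, differed from this: Fasn was at 971 ± 12, 1257 ± 24 and 1658 ± 19 CPM, Acly at 477.5 ± 5.4, 477 ± 2.7 and 555 ± 5.6, and Acaca at 224 ± 6.2, 147 ± 4.8 and 124 ± 1.0.

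Genes known to respond to FOXO factors, insulin and fasting were higher with age in most cases. Of 18 such genes 16 were called higher and 1 lower in aged than in young libraries (median 1.2; 33.4% of all genes were higher). The latter was the gluconeogenic Pck1, whose -0.045 turned to 0.062 with upper-quartile factors and 0.15 on log2(FPKM + 1). Of the 18 genes 3 were higher and 11 lower in treated than in aged libraries (median -0.69), against 31.8% and 31.5% of all genes. Igfbp1, an insulin-repressed binding protein of growth factors, was at 180 ± 3.4, 501 ± 6.6 and 45.7 ± 2.1 CPM, and Irs2, the insulin receptor substrate, at 52.5 ± 4.0, 156 ± 5.3 and 33.9 ± 1.2 CPM. Like Txnip, both were highest in the aged and lowest in the treated libraries. The 3 genes called higher with treatment, named here after their values were seen, were instead highest in the treated libraries. These were Pdk4 (2.6, 12.6 and 28.8 CPM by group mean), Bcl6 (31.0, 44.8 and 118) and Irs1 (4.88, 26.2 and 39.1). Depp1, a FOXO target, was at 3.07 ± 0.80, 270 ± 1.4 and 151 ± 5.2 CPM, so that its treated level, like that of Arrdc3, lay between the young and the aged one. Of 10 glucocorticoid-responsive genes 7 were higher and 2 lower with age (median 0.70), against 33.4% and 36.1% of all genes. With treatment 2 were higher (1 without treated replicate 3) and 8 lower (median -0.69), against 31.8% and 31.5%. Tsc22d3, which encodes GILZ, rose with age by 1.68 and fell by 0.87 in the treated libraries, whereas Fkbp5, a co-chaperone of the receptor, fell with age by 2.22.

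**Figure D5:**
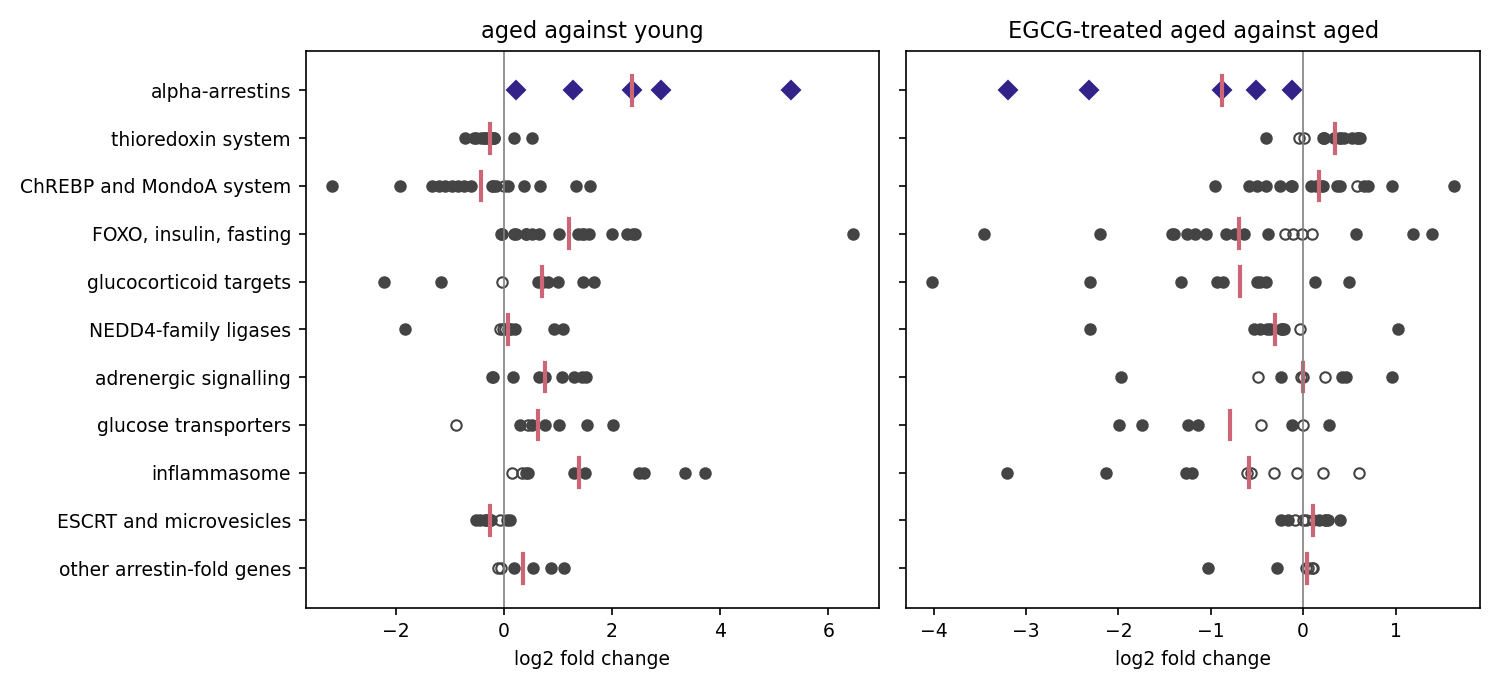
Log2 fold changes of the tested genes of each list in aged against young (left) and treated against aged libraries (right); filled points passed the adjusted threshold, open points did not, diamonds are the 5 alpha-arrestins and red bars are medians. The median of the alpha-arrestins is 2.38 on the left and -0.87 on the right, against -0.26 and 0.34 for the thioredoxin system.

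The ubiquitin ligases that alpha-arrestins recruit, and their regulators, were counted in the same way. Of 10 tested genes 4 were called higher and 1 lower with age (median 0.083), against 33.4% and 36.1% of all genes. Under upper-quartile factors 7 were higher, and on log2(FPKM + 1) 8 were. In treated against aged libraries 1 rose and 8 fell (median -0.30), against 31.8% and 31.5% of all genes. Nedd4l, which controls sodium channels, was the exception in both directions, at 127 ± 3.0 CPM in young, 35.7 ± 0.46 in aged and 72.8 ± 1.8 in treated libraries. Nedd4 fell by 0.39 in treated against aged libraries, and with age its value of 0.020 was not called. Smurf1 rose by 0.93 with age and fell by 0.47 with treatment.

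Of 8 tested glucose transporter genes other than the hepatic Slc2a2, 6 were called higher with age (median 0.64), against 33.4% of all genes. With treatment 1, Slc2a1, was higher and 5 fell (median -0.79), against 31.8% and 31.5%. On log2(FPKM + 1) without a filter these medians were 0.28 and -0.083. Slc2a3, Slc2a4, Slc2a6 and Slc5a1 among these 8 had at most 1.05 CPM by group mean. Slc2a2 itself, at 313 ± 4.5, 285 ± 7.9 and 259 ± 2.7 CPM, was called lower with age (-0.14) and with treatment (-0.14). Its difference with age was -0.029 with upper-quartile factors and 0.063 on log2(FPKM + 1), not called in either. Slc2a1, the gene of GLUT1, a known cargo of TXNIP, was at 6.17 ± 1.2, 12.6 ± 0.48 and 15.3 ± 0.77 CPM. Slc2a1 rose with age by 1.03, while its difference of 0.28 between treated and aged libraries was not called on log2(FPKM + 1) (0.22), without aged replicate 2 (0.26) or without treated replicate 2 (0.25). Of 9 genes of adrenergic signalling 7 were higher and 2 lower with age (median 0.77), against 33.4% and 36.1% of all genes. Without aged replicate 1 or young replicate 3 these counts were 4 and 1. On log2(FPKM + 1) 0 were lower with age, and without a filter the median was 0.27. With treatment 3 were higher and 2 lower (1 without treated replicate 1), against 31.8% and 31.5% of all genes. Adrb3 rose by 1.30 and the receptor kinase gene Grk5 by 1.44 with age.

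Genes of the inflammasome, which TXNIP is known to bind through NLRP3, were in part near the detection limit. Of 10 tested genes 8 were called higher with age, against 33.4% of all genes, and 4 lower with treatment, against 31.5%. The medians were 1.40 and -0.58, or 0.24 and -0.10 on the FPKM scale with a pseudocount of 1. Nlrp3 was at 0.196 ± 0.12, 1.13 ± 0.36 and 0.466 ± 0.13 CPM, and its difference of -1.27 between treated and aged libraries was not called without aged replicate 3 (-0.98) or treated replicate 2 (-1.10). Il1b was at 1.82 ± 0.24, 18.5 ± 1.0 and 2.01 ± 0.44 CPM, close to the profile of Txnip as given above.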

How the data were processed

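Bulk RNA-seq of 9 libraries (3 young, 3 aged, 3 EGCG-treated aged; grouped by title) was analysed. The authors deposited raw counts per gene symbol and FPKM of the same genes, per the file headers. RNA was purified with a Qiagen column kit and libraries made with a SMARTER kit, per the labels' protocols. The builds GRCm38 and mm10 are named in the submitters' processing notes, while no source used here states the aligner, counter or annotation. The deposited FPKM equal CPM of the column total divided by 1 length per gene, as checked here.

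Counts that passed filterByExpr (minimum count 10) went into a quasi-likelihood fit of all 9 libraries (edgeR 4.0.16, R 4.3.3) with TMM factors and Benjamini-Hochberg adjustment over 12747 genes at 0.05. Alternatives used DESeq2 1.42.0, limma 3.58.1 on log2(FPKM + 1) or log2(FPKM + 0.1), other factors, no filter, 2 groups only, a replicate block and each library left out. Steps were tested on simulated data. CPM floors (3 counts) cover counting error only. Within groups, libraries were not duplicates: chi-square over its degrees of freedom was 3.79 to 4.78. The members and lists were chosen with earlier results of these data known. Named genes are the members, the 3 nearest profiles of each (mean of 5 CPM or more somewhere), up to 4 genes per list by smallest p, and genes whose role the text needs; some of these are not reported here. Promoters are from RefSeq (GRCm38.p6), which held all 5 members, and gene positions from GENCODE M21. The common biological coefficient of variation was 5.37%.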

Additional observations from a re-analysis of the deposited data

How the results depend on the processing

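The members' log2 fold changes kept their direction and their side of the threshold under the other factors, no filter, DESeq2, 2-group fits, the replicate block and FPKM values. Without each library in turn, Arrdc4 in aged against young ranged over 0.15 to 0.31 and lost its call without aged replicate 1 or young replicate 3. Arrdc1 in treated against aged libraries, never called, ranged over -0.19 to 0.018. Same-numbered libraries did not deviate together (correlations -0.044 to 0.019, and 1 of 9 libraries correlated best with its own number). With the replicate block 8749, 7957 and 7907 genes were called against 8857, 8064 and 8014, and 0 member calls changed. Genes called lower with age were 2822 on log2(FPKM + 1), 2821 on log2(FPKM + 0.1) and 2749 on the former without a filter, against 4596, and for treated against young 2656, 2673 and 2612, against 4087. The FPKM carry no TMM factor. Those factors were 0.911 to 0.920 in young, 1.049 to 1.055 in aged and 1.027 to 1.046 in treated libraries. What part this had in the differences between settings was not tested. With age, Itch was 0.17 on log2(FPKM + 1), with and without the filter, and 0.18 on log2(FPKM + 0.1), against -0.021. Likewise Gnas was 0.000591 and 0.000599 (-0.20), Slc2a2 0.063 and 0.063 (-0.14) and Pck1 0.15 and 0.15, or 0.062 with upper-quartile factors (-0.045). Pdcd6ip in treated against young was 0.0089 and 0.0093 (-0.17). Low counts limit Arrdc1 (27 to 99 per library).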

Other observations

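ARRDC1 is known to bud vesicles with the help of TSG101 and the ESCRT machinery. Of 11 ESCRT genes 1 was called higher (0 without any one library) and 8 lower in aged than in young libraries (median -0.25). Among all genes 33.4% were higher and 36.1% lower. On log2(FPKM + 1) 3 of the 11 were higher and 3 lower, and the median ranged from -0.25 to -0.050 over the alternatives. In treated against aged libraries 5 were higher and 2 lower (median 0.11), against 31.8% and 31.5% of all genes. Tsg101 fell by 0.44 with age and rose by 0.17 with treatment, while Arrdc1 was higher with age and did not differ detectably with treatment.

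Of 6 tested other genes with an arrestin fold, 4 were called higher and 0 lower with age, against 33.4% and 36.1% of all genes. With treatment 0 were higher and 2 lower, or 1 and 1 with upper-quartile factors, against 31.8% and 31.5% of all genes. Arrb1 and Arrb2, the beta-arrestins, were at 5.52 ± 0.088 and 6.16 ± 0.98 CPM in the young, 10.1 ± 1.0 and 13.3 ± 0.55 in the aged and 4.96 ± 0.80 and 10.96 ± 1.1 in the treated libraries. Arrb1 thus rose by 0.88 with age and fell by 1.03 with treatment. Arrb2 rose by 1.11 with age, and its difference of -0.28 with treatment was not called with upper-quartile factors (-0.22), without aged replicate 3 (-0.24) or without treated replicate 1 or 2 (-0.22 and -0.26). The arrestin-fold genes Vps26b and Vps26c rose with age by 0.18 and 0.54. Vps26b lost this call without aged replicate 3 or young replicate 2 or 3 (0.15, 0.14 and 0.15). Neither Vps26b nor Vps26c was called between treated and aged libraries (0.034 and 0.10). Sag, rod arrestin, had 0 to 8 counts in a young, 0 or 1 in an aged and 0 to 2 in a treated library.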
